A study of Mus musculus with 6 samples.

Results

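The myosin light chains described were 9 genes, MYL1, MYL2, MYL3, MYL4, MYL5, MYL6, MYL6B, MYL9 and MYL11 (formerly MYLPF), a gene family taken as a whole and found on the array through probe sets annotated with 1 of these symbols and no other. They were 9 of 11963 genes so named and came to 13 probe sets of the 22215 that are not controls, with 4 for MYL4, 2 for MYL6 and 1 for each other gene. The arrays were HG-U133A, which carry probes for human transcripts, and each gave 1 MAS5 signal, a scaled intensity, per probe set. By the labels 3 arrays carried total RNA of C2C12 myotubes cultured in 2.5% horse serum, and 3 carried RNA of C2C12 myoblasts, whose medium the labels used here do not give; C2C12 is an established line of mouse muscle, in which dividing myoblasts stop cycling and fuse into multinucleated myotubes when serum is low. No gene was altered in either group. The human array and the mouse label do not match, and which species the RNA came from is not settled by the values. The genes below are therefore the human ones that the probes were made for, and a low signal need not mean an absent transcript.

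Myosin is the motor of the thick filament. Each of its heavy chains binds an essential light chain, which stiffens the lever arm next to the motor head, and a regulatory light chain, which in smooth muscle and non-muscle cells is phosphorylated to switch the motor on and in striated muscle tunes its force. Muscles differ in which light chain genes they use: MYL1 and MYL11 are the essential and regulatory chains of fast skeletal fibres, MYL3 and MYL2 those of slow fibres and the heart ventricle, MYL4 is an essential chain of embryonic muscle and the atrium, and MYL6 and MYL9 serve smooth muscle and non-muscle myosin.

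The arrays within a group were not alike, and this bears on every value. On the log2 scale, over probe sets, Pearson's r was 0.988 between myoblast arrays 2 and 3 and 0.889 to 0.912 for the remaining pairs of the same stage, while myotube array 3 had 0.909 with myoblast array 1 and 0.920 and 0.924 with myoblast arrays 2 and 3. Myotube array 3 was thus closer, by this measure, to each myoblast array than to the other myotube arrays. On the plain signals the order was the reverse. There its r was 0.945 and 0.962 with myotube arrays 1 and 2, against 0.908 to 0.928 with the myoblast arrays. The geometric mean of the spike-in controls was 12320 to 71439 on the myotube arrays, 48119 on myoblast array 1, and 3539 and 4275 on myoblast arrays 2 and 3. In the run records the sample codes of myoblast array 1 and the myotube arrays formed one consecutive series, called the first laboratory series here, and those of myoblast arrays 2 and 3 another. The record of myoblast array 1 bears number 3, and those of arrays 2 and 3 bear 1 and 2. The stage of myoblast array 3 was taken from its description because its title lacks it. That description reads "Myoblast (1-2) G(1-2)", and what its numbers mean is not stated. Each group had a scan day and chip lots of its own, so these cannot be told apart from the stage. Separate cultures are not stated in the labels, and the p-values therefore reflect the spread among arrays, which may be technical.

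The labelled cell type was checked against markers. Of 12 skeletal muscle markers 7 passed the filter on dim probe sets and 5 were called higher in myotubes. The filter used the mean over all arrays, and each of these 5 had a myoblast mean under it. They thus passed through their myotube signals, and their count is no independent check of the label. The summed signal of all 12, taken without the filter, was 16777 to 18970 in myotubes and 1562 to 6134 in myoblasts. The highest myoblast sum was on array 1. On all arrays MYF5, MYOG, MYF6 and CKM did not exceed the highest unspiked control, the brightest probe set for bacterial RNA other than the hybridisation spike-ins, which is used below as the background level of an array. Of 5 genes of dividing cells 4 were lower in myotubes, and their summed signal was 3444 to 5839 in myotubes against 22945 to 26660.2 in myoblasts. Fibroblast markers also moved with the stage, 8 of 9 being called higher in myotubes, with sums of 288287 to 402678 in myotubes and 81454 to 155633 in myoblasts. Since this is RNA of whole cultures, more cells expressing a gene and more RNA per cell cannot be told apart.

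Across the family, 8 of 13 probe sets were called higher in myotubes and 0 were lower (limma, adjusted p under 0.05 over all 13329 tested probe sets; 0 of the 13 had an unadjusted p under 0.05 in the lower direction). All 13 passed the filter on low values, a mean of 474 over all arrays. MYL1, MYL2 and MYL3 had myoblast means under it, at 454, 319 and 398, and so passed through their myotube signals. Without the filter 8 of the 13 were again called higher, against 550 of all 22215 probe sets. Over all tested probe sets 4.93% were called higher and 6.4% lower. In the same 8 every myotube signal lay above every myoblast signal, as in 17.5% of all tested probe sets. The 8 belonged to 5 genes, MYL11, MYL1, MYL4, MYL9 and MYL6B, while MYL2, MYL3, MYL5 and both probe sets of MYL6 were not called. At the gene level, 5.39% of 8161 genes were called higher and 6.73% lower. The median log2 change was 1.21 over the 13 probe sets and 0.09 over all tested. Changes are differences of log2(signal + 197), myotube over myoblast, which understate the change of dim genes. With the laboratory series as a block, a fit that rests on myoblast array 1 for the myoblast side, 6 of the 13 were called higher, against 1.54% of all probe sets, and the median change was 1.14. The 2 whose call ended were MYL6B and 1 of the 4 probe sets of MYL4.

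**Figure D1:**
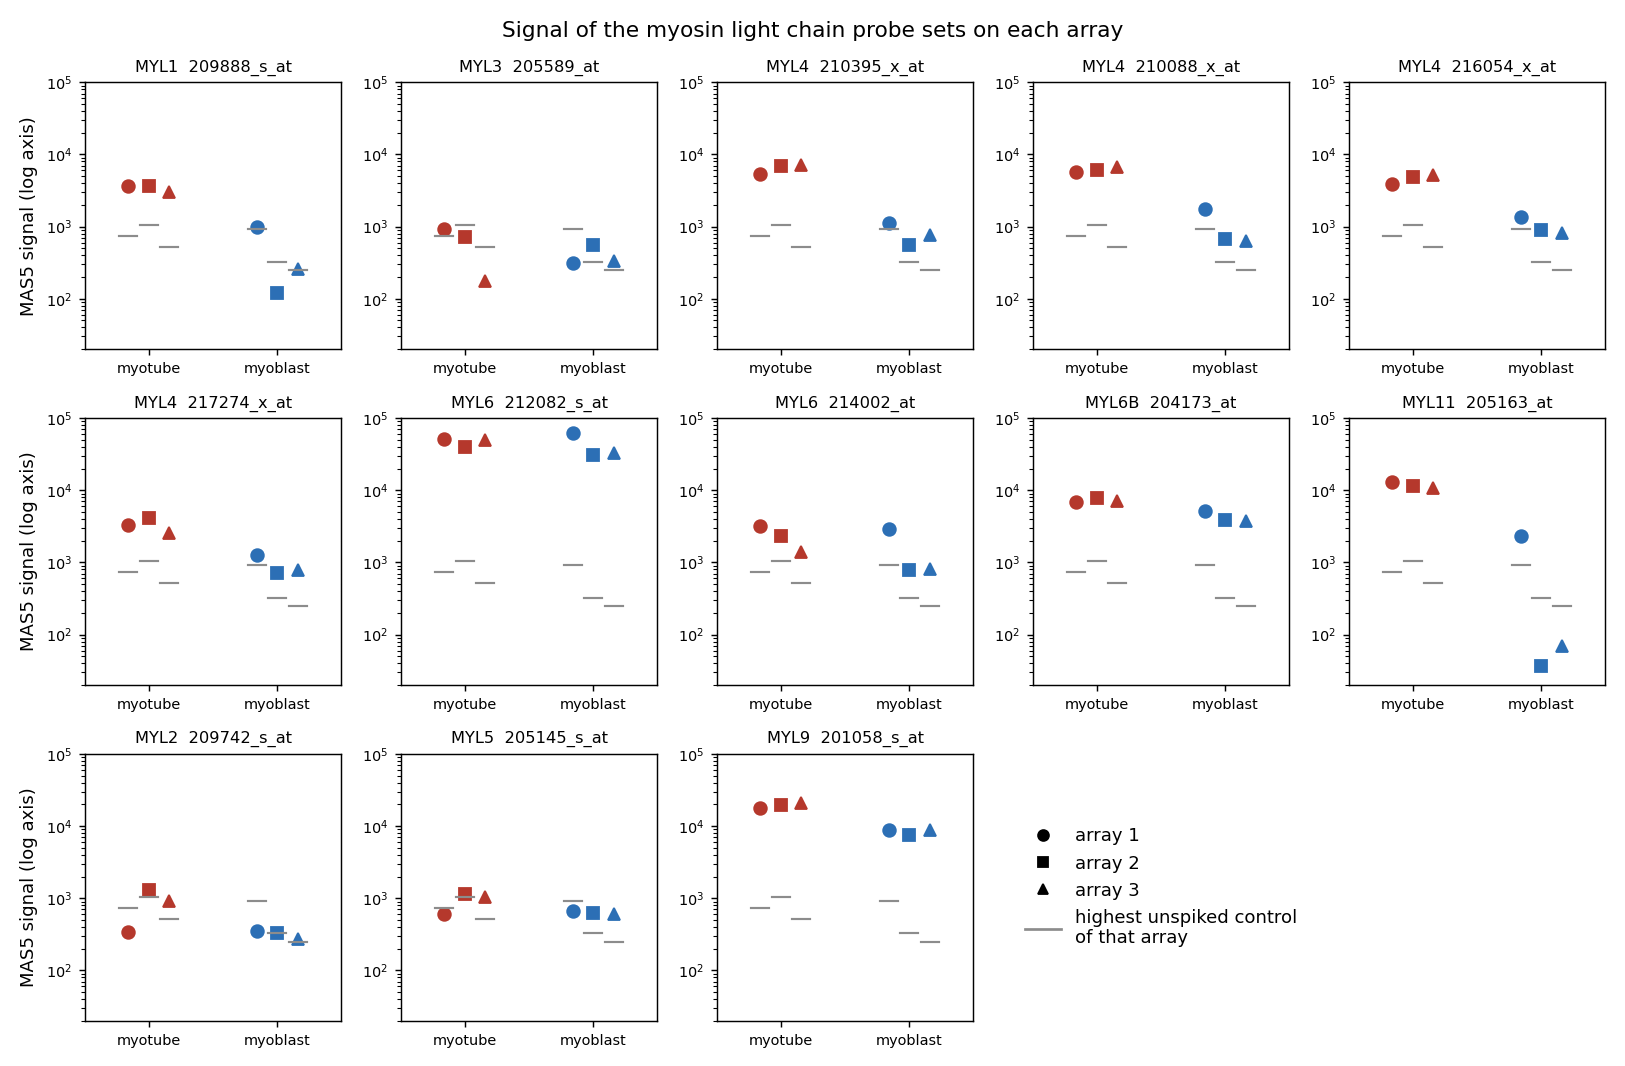
MAS5 signal (log axis) of each myosin light chain probe set on the 3 myotube and 3 myoblast arrays; symbols mark the array number and grey bars the highest unspiked control of that array. MYL11, MYL1, MYL4, MYL6B and MYL9 have all myotube points above all myoblast points, while the groups overlap for MYL2, MYL3, MYL5 and MYL6.

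To show the regulatory DNA next to the start sites of some of the called genes, windows of 250 bases before to 50 after the RefSeq start are printed 5′ to 3′ for the mouse genes Mylpf (the mouse MYL11), Myl1 and Myl9, from RefSeq on GRCm38.p6. The windows of Myl4 and Myl6b, whose genes were called too, are not printed. Windows were matched by symbol, and 8 of the 9 members had an entry, with 10 windows in all. Capitals mark each E-box, the letters CANNTG, which is its own reverse complement and is the motif that myogenic basic helix-loop-helix factors bind. The RNA was not shown to be of mouse, so these windows are those of the labelled organism.
Mylpf (chr7:127211358-127211657, plus strand): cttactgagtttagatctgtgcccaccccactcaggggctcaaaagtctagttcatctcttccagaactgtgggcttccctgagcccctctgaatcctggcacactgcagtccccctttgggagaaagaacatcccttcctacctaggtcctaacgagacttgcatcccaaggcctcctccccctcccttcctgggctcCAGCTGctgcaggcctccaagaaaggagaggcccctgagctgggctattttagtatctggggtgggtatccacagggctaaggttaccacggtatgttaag
Myl1 (chr1:66945007-66945306, minus strand): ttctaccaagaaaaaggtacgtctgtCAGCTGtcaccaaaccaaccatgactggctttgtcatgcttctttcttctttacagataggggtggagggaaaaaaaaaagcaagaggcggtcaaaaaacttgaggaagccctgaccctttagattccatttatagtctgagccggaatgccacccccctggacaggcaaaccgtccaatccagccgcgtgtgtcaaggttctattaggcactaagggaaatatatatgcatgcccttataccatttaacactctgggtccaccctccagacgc
Myl9 (chr2:156775214-156775513, plus strand): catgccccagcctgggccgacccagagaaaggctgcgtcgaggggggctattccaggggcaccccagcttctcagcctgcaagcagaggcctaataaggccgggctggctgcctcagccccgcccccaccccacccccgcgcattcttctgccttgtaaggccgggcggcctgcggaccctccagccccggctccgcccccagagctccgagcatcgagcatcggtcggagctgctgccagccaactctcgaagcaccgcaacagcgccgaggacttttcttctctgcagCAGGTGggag

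Both the Mylpf and the Myl1 window held the E-box CAGCTG, with its first base at position -51 from the start in Mylpf and at -224 in Myl1. Both windows of Myl2, whose gene was not called, held it as well. The letters CANNTG occurred in 8 of the 10 member windows and in 72.3% of all 32851 windows of this length, and CAGCTG in 16.3% of all windows. The Myl9 window held another E-box, CAGGTG, after the start, and a CArG box, the site of serum response factor in smooth muscle genes, as did those of Myl3, 1 of the 2 of Myl6 and 1.63% of all windows, searched on both strands; the E-box and the CArG box of Myl9 do not overlap. The window of Myl4 held no E-box. A match is a description of letters, and binding was not measured.

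The fast skeletal pair had the largest changes among the single-probe-set genes. MYL11, the fast regulatory chain, gave 12983, 11570.2 and 10819.7 on myotube arrays 1, 2 and 3, against 2311, 36.8 and 68.7 on myoblast arrays 1, 2 and 3. The myotube arrays were close together, whereas myoblast array 1 stood far above the other myoblast arrays, on both of which the signal was below the highest unspiked control. The log2 change was 4.47 ± 0.72 (SE), with a limma adjusted p of 0.00469, a size that depends on the added 197 because 2 of 3 myoblast signals were not above background. With those 2 raised to the background level the ratio of geometric means was 20.5, and the ratio of the plain means was 14.6. Against myoblast array 1 alone the myotube mean was 5.10 times as high, and the series block gave a log2 change of 2.25 ± 0.25 (limma adjusted p = 0.00527). The size thus depends on which myoblast arrays are set against the myotubes, while the gene was called in all 19 alternatives run, with log2 changes of 2.25 to 5.58.

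MYL1, the fast essential chain, gave 3601, 3633 and 3029 in myotubes, against 979, 120.2 and 262 on myoblast arrays 1, 2 and 3. Its pattern over arrays was that of MYL11, with myoblast array 1 in between, myoblast array 2 below the highest unspiked control, and the other 2 myoblast arrays just above it. The mean was 3421 ± 340.2 in myotubes and 454 ± 461 in myoblasts (SD, n = 3 each). The log2 change was 2.70 ± 0.43 (limma adjusted p = 0.00451), the ratio of geometric means 7.79 with array 2 raised to the background level, and the log2 change 1.62 ± 0.34 with the series block (limma adjusted p = 0.0482). It was called in all 19 alternatives, with log2 changes of 1.62 to 3.24.

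MYL4, an essential chain of embryonic skeletal muscle and the atrium, was measured by 4 probe sets whose names end in _x_at, the mark of probes that may also match other transcripts. They share a target and are no replicates of the condition. The first, 210395_x_at, gave 5379, 6859 and 7228 in myotubes, against 1118, 549 and 768 in myoblasts. The second, 210088_x_at, gave 5782, 6053 and 6676 in myotubes, against 1779.6, 664 and 637 in myoblasts. On both, every myotube array was at least 3 times as bright as any myoblast array. The third, 216054_x_at, gave 3882, 4919.7 and 5251 in myotubes, against 1344, 892 and 807 in myoblasts. The fourth, 217274_x_at, gave 3263, 4179 and 2596 in myotubes, against 1267, 726 and 790.4 in myoblasts.

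All 4 probe sets of MYL4 were called higher, and their sizes differed. Myotube array 3 was the highest myotube array by the first 3 and the lowest by 217274_x_at. The log2 changes were 2.76 ± 0.25, 2.50 ± 0.31, 2.03 ± 0.24 and 1.66 ± 0.27 in the order above (limma adjusted p from 0.000383 to 0.00497). Over the mean of the 4 it was 2.24 ± 0.24 (limma adjusted p = 0.000599). With the series block the changes were 2.34, 1.69, 1.65 and 1.25, the last no longer called (limma adjusted p = 0.0825). On none of the 6 arrays did any of the 4 fall below the highest unspiked control. Unlike that of MYL11, the myoblast signal of these probe sets thus lay above the background level on every array. How much of it came from other transcripts was not tested.

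The slow and ventricular pair gave no call. MYL2, the slow regulatory chain, gave 345, 1295 and 931 in myotubes, against 347, 334 and 275 in myoblasts. Myotube array 1 lay among the myoblast arrays, and the other 2 myotube arrays above them. The log2 change was 0.91 ± 0.44 (limma adjusted p = 0.191), and none of the 18 alternatives that tested it called it. MYL3, the slow essential chain, gave 925, 714 and 175 in myotubes, against 309, 553 and 333 in myoblasts. The groups overlapped, with myotube array 3 lowest of all 6, and the log2 change was 0.31 ± 0.49 (limma adjusted p = 0.689). For MYL2 and MYL3 together, 3 of 6 myotube signals and 2 of 6 myoblast signals did not exceed the background level, so the errors leave room for a change of either size or none. Of the heart muscle markers, 3 of 8 on the array passed the filter, 0 were called by limma (2 had an unadjusted p under 0.05), and MYH6, NPPB, MYL7, NKX2-5 and GATA4 were below that control on all arrays, with sums over the 8 of 2499 to 7820 in myotubes and 1152 to 3519 in myoblasts. Most of each myotube sum was NPPA, the atrial natriuretic peptide, and MYH7, the slow heavy chain. NPPA gave 4607, 4129.6 and 999 in myotubes, against 1708, 174 and 406 in myoblasts (limma adjusted p = 0.0732). MYH7 gave 1203, 685 and 539 in myotubes, against 115, 336 and 232 in myoblasts (limma adjusted p = 0.0915). Every myotube signal of MYH7 lay above every myoblast signal, as in 17.5% of all tested probe sets. Of these signals 1 of 3 in myotubes and 2 of 3 in myoblasts did not exceed the background level. MYH7 passed the filter only through its myotube signals, and its probe set is of the _x_at kind. The part of these heart muscle genes in the MYL2 and MYL3 values was not tested.

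MYL5, a regulatory light chain known from the adult retina and fetal muscle, was near the control level as well. It gave 598, 1129.9 and 1052 in myotubes, against 669, 624 and 601 in myoblasts. Myotube array 1 was the lowest of all 6 arrays and the other 2 myotube arrays the highest. The log2 change was 0.40 ± 0.33 (limma adjusted p = 0.426).

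Among the light chains of smooth muscle and non-muscle myosin, MYL9 rose and MYL6 did not pass. MYL9, a regulatory chain, gave 17710.3, 19877 and 21135.5 in myotubes, against 8733, 7432 and 8864 in myoblasts. Here the 3 myoblast arrays lay together, array 1 included. The mean was 19574 ± 1733 in myotubes and 8343 ± 792 in myoblasts (SD, n = 3 each), a log2 change of 1.21 ± 0.18 (2.32-fold, limma adjusted p = 0.00327). The series block left it at 1.14 ± 0.20 (limma adjusted p = 0.028), and over all 19 alternatives it ranged from 1.13 to 1.34 and was always called. Smooth muscle markers went both ways, and of 8 on the array 6 were tested. ACTA2, TAGLN and CNN1 were called higher in myotubes (limma adjusted p = 0.00211, 0.00765 and 0.00291). Of these CNN1 had a myoblast mean under the filter and so passed it only through its myotube signals. SMTN, the actin-binding protein smoothelin, was called lower. SMTN gave 3167, 2536 and 2746 in myotubes, against 7124, 6135 and 5955 in myoblasts, a log2 change of -1.13 ± 0.18 (limma adjusted p = 0.0045). The summed signal of the 8, most of it TAGLN and ACTA2 in myotubes, was 82658 to 90962 in myotubes and 33525 to 50807 in myoblasts. MYH11, the smooth muscle heavy chain, did not exceed the background level on any array, and the smooth muscle actin ACTA2 gave 20422 to 22552 in myotubes and 4825 to 9076 in myoblasts. The part of smooth muscle or fibroblast-like cells in the MYL9 value was not tested.

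MYL6, the essential chain of non-muscle and smooth muscle myosin, gave 52109.6, 40304 and 50297 in myotubes, against 63026, 30978 and 33176 in myoblasts, by 212082_s_at. Myoblast array 1 was the brightest of all 6 arrays and the other 2 myoblast arrays the dimmest. Its second probe set, 214002_at, gave 3188, 2344 and 1377 in myotubes, against 2870.25, 781 and 821 in myoblasts, here with array 1 among the myotube values. The log2 changes were 0.23 ± 0.31 and 0.72 ± 0.44 (limma adjusted p = 0.632 and 0.295). Their sign depends on the myoblast arrays: with the series block they were -0.41 and -0.36 (limma adjusted p = 0.365 and 0.724), and without myoblast array 1 they were 0.56 and 1.26 and called (limma adjusted p = 0.0397 and 0.0248). Quantile normalization gave -0.10 for 212082_s_at.

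MYL6B, an essential chain of non-muscle myosin and slow skeletal muscle, gave 6825, 7885 and 7185 in myotubes, against 5120.2, 3867 and 3792 in myoblasts. The groups did not overlap, with myoblast array 1 nearest to the myotubes. The log2 change was 0.76 ± 0.18 (1.69-fold, limma adjusted p = 0.0261). That call was the least firm of the 8: it was lost in 9 of 19 alternatives, among them the series block (0.49 ± 0.20, limma adjusted p = 0.264) and leaving out myoblast array 2 or 3 or myotube array 1 or 2 (limma adjusted p up to 0.141).

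**Figure D2:**
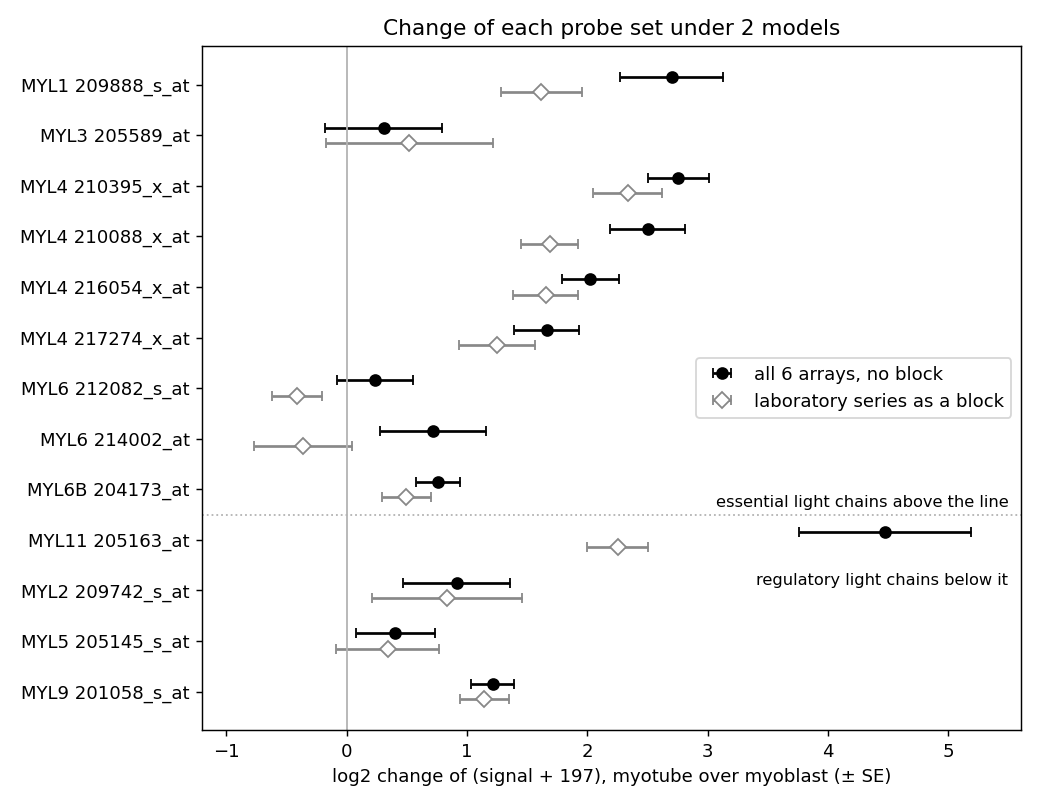
Change of log2(signal + 197), myotube over myoblast, with SE, for the 13 probe sets, from all 6 arrays without a block (black) and blocked by laboratory series (grey). MYL11 has 4.47 without the block and 2.25 with it, MYL9 has 1.21 and 1.14, and both probe sets of MYL6 change sign.

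The members differed in where myoblast array 1 stood. It was the highest of the 3 myoblast arrays for 11 of 13 probe sets, all but MYL3 and MYL9, as for 47.9% of all tested probe sets. On the scale from the mean of myoblast arrays 2 and 3 to the myotube mean, in log2, it stood 59.7% of the way for MYL11 and 50.1% for MYL1. For the 4 probe sets of MYL4 it stood 21.3% to 42.0% of the way, for MYL6B 44.9% and for MYL9 8.28%. The median over the 657 probe sets called higher was 21.1%, with quartiles of -4.51% and 38.7%. For MYL6 it lay beyond the myotube mean, at 174% and 129%. CHRNA1, a subunit of the muscle acetylcholine receptor, gave 1445 on that array, against 253 and 325 on myoblast arrays 2 and 3. The background level of the array, its highest unspiked control, was itself higher, at 919.9, against 326 and 252 on those 2 arrays. Of the 12 skeletal muscle markers only CHRNA1 and DES exceeded that level on myoblast array 1. DES gave 1496 there, against 257 and 342 on myoblast arrays 2 and 3. MEF2C alone went the other way, with 396, against 467 and 433. The summed signal of the 12, the spike-in signal and the ratio of GAPDH below were higher on myoblast array 1 than on myoblast arrays 2 and 3. Their part in the light chain values was not tested. The 3′ to 5′ signal ratios of actin and GAPDH, signs of RNA integrity, moved with the arrays too. That of GAPDH was 1.47, 1.16 and 0.926 on myotube arrays 1, 2 and 3, against 1.23, 0.914 and 0.848 on myoblast arrays 1, 2 and 3, so that array 1 had the highest ratio of the myoblasts. That of actin was 0.775 to 0.987 on the myotube arrays and 0.973 to 1.07 on the myoblast arrays, with 1.01 on array 1.

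**Figure D3:**
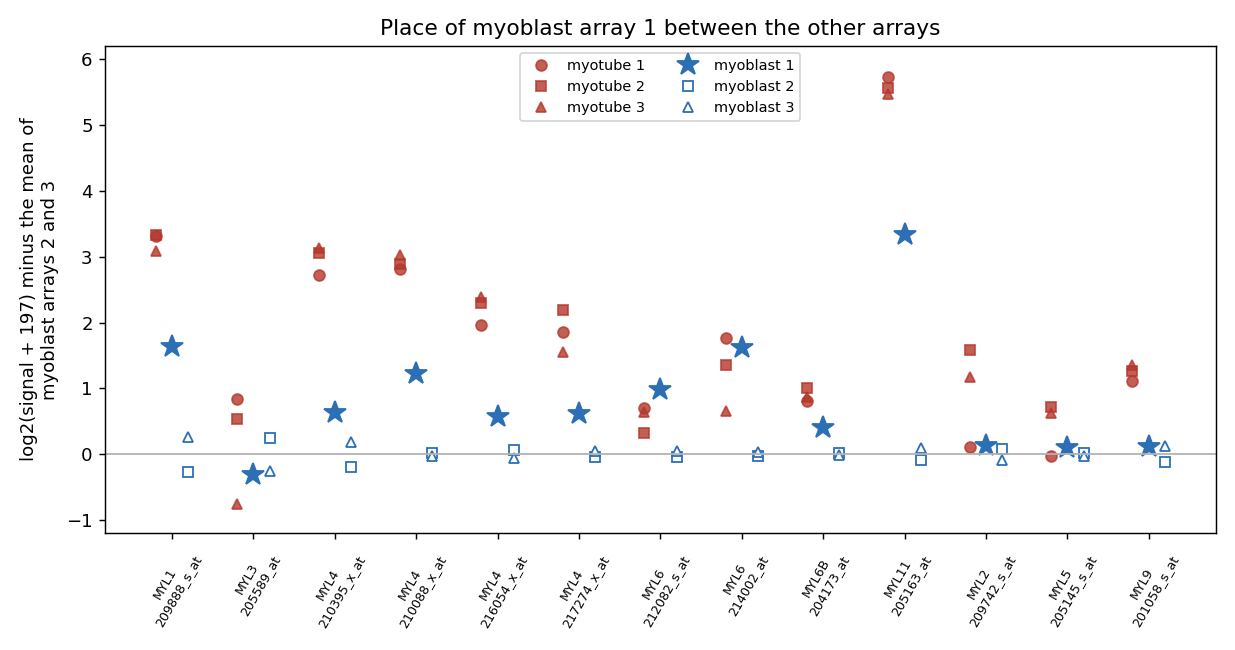
For each probe set, log2(signal + 197) on every array minus the mean of myoblast arrays 2 and 3; red points are the myotube arrays, the blue star is myoblast array 1 and open blue points are myoblast arrays 2 and 3. The star lies between the groups for MYL11 and MYL1, near the other myoblasts for MYL9, and among or above the myotubes for MYL6.

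The rest of the myosin motor was read through gene lists, each gene by its brightest probe set. Of 4 other light chains 3 were tested and 0 were called by limma in either direction (1 had an unadjusted p under 0.05). MYL12B, a non-muscle regulatory chain, gave 12021, 15978 and 23276 in myotubes, against 24448, 22814 and 26280.2 in myoblasts, a log2 change of -0.56 ± 0.25 (limma adjusted p = 0.159). MYL12A, its close relative, had a change of 0.02 ± 0.28, which was -0.56 with the series block (limma adjusted p = 0.392), and MYL10 one of 0.74 ± 1.01, with signals from 124.8 to 5066 within the myotubes. MYL7, the atrial regulatory chain, lay below the filter and below the highest unspiked control on every array.

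Of 12 heavy chain genes 7 were tested, and 1 was called higher: MYH3, the embryonic heavy chain, with 3770.0, 3657 and 4090.4 in myotubes, against 510.3, 8.95 and 27.1 in myoblasts. The log2 change was 3.66 ± 0.45 (limma adjusted p = 0.00139). All 3 myoblast signals were under the background level, and with these raised to it the ratio of geometric means was 9.07, a ratio that was not tested. The adult fast heavy chains MYH1, MYH2 and MYH4 lay below the filter, with every signal at or below the highest unspiked control. On the same arrays MYL1 and MYL11, the light chains of fast fibres, exceeded it in all 3 myotubes. With the species of the RNA not settled, such low signals need not mean absent transcripts. The non-muscle heavy chains MYH9 and MYH10 had changes of -0.38 ± 0.25 and 0.44 ± 0.17 (limma adjusted p = 0.314 and 0.119). Of the myosin binding and assembly genes 2 of 6 on the array were tested, and 1 was called higher, MYBPH, a myosin binding protein. Its log2 change was 2.65 ± 0.37 (limma adjusted p = 0.00237), and the ratio with myoblast signals raised to background was 3.78. MYH3, MYH7, MYH8, MYH13 and MYBPH passed the filter only through their myotube signals, so the counts called among tested genes favour a rise. Without the filter MYH3 and MYBPH were still called (limma adjusted p = 0.00127 and 0.0032). Both MYH3 and MYBPH were still called with the series block (limma adjusted p = 0.00887 and 0.0384).

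Of 8 genes on the array that add or remove the phosphate of regulatory light chains or control their level, 7 were tested and 0 were called by limma (3 had an unadjusted p under 0.05). Among the 7, MYLIP passed the filter only through its myotube signals. The smallest p-values were those of ROCK1, a kinase that inhibits the phosphatase, and PPP1CB, the catalytic subunit of that phosphatase, with log2 changes of -0.70 ± 0.25 and -0.98 ± 0.37 (limma adjusted p = 0.0935 and 0.11). Both were called lower without myoblast array 1 (limma adjusted p = 0.0215 and 0.00847), and with the series block their changes were -0.27 and -0.14. MYLK, the light chain kinase of smooth muscle, had a change of 0.53 ± 0.43 (limma adjusted p = 0.415), which was -0.21 with the series block.

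**Figure D4:**
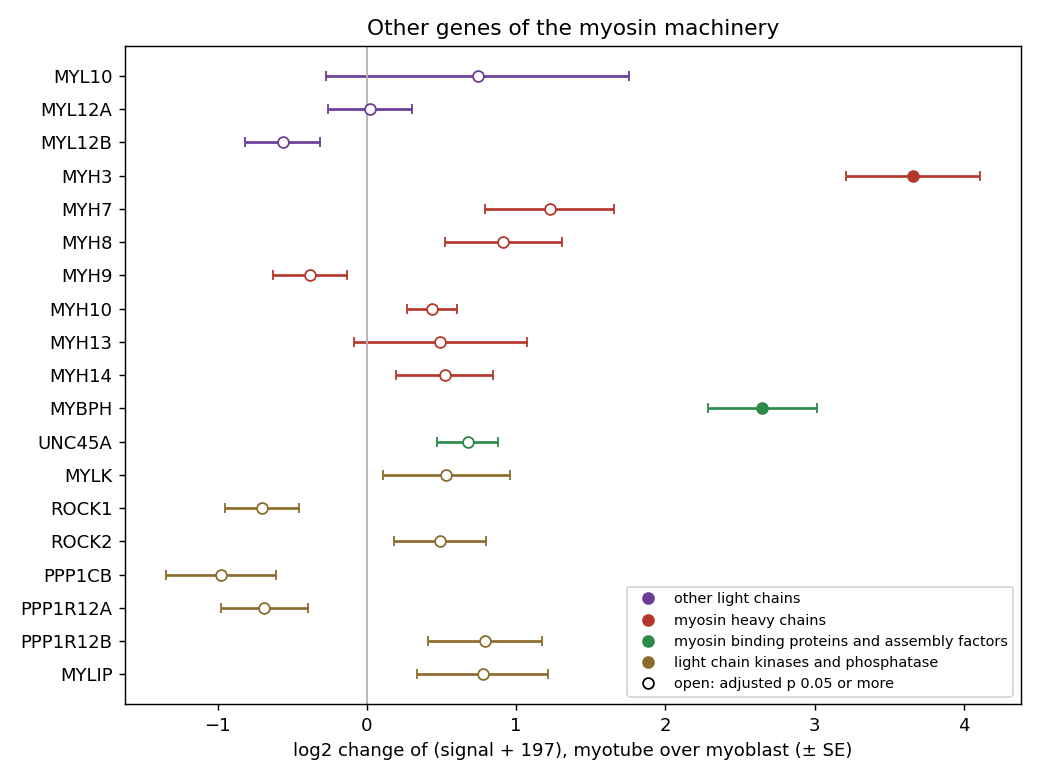
Change of log2(signal + 197), myotube over myoblast, with SE, for the other tested genes of the myosin motor and its regulation, coloured by list; filled points had a limma adjusted p under 0.05. Only MYH3 and MYBPH among the 19 genes shown are filled.

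The genes whose log2 signal over the 6 arrays followed MYL11 or MYL9 most closely were named by Pearson's r among 8152 other genes, as a description with no test, since all called genes share the difference between the groups. For MYL11 they were PLPP3, PDGFD, IFITM3, THBS3 and NUPR1, with r from 0.996 to 0.999. Each of these had a raised signal on myoblast array 1: PLPP3 gave 11891, 10813.5 and 11402 in myotubes, against 6600.4, 2560.0 and 2919.9 in myoblasts. For MYL9 they were PIM1, TRIB3, GDF15, NPC2 and ARHGAP6, with r from 0.995 to 0.999, as in NPC2 with 20545, 23868 and 25624 in myotubes, against 7099, 6791 and 7411 in myoblasts. No contractile gene was among these 10.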

How the data were processed

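Total RNA labelled with biotin was hybridised to 6 arrays, 3 of myotubes and 3 of myoblasts. The deposited values are an intensity, 1 linear signal per probe set made by the authors; the submitters' processing notes name MAS5, and its version was not found there. Run records deposited as text gave chip lot, scan day and sample code. The value table holds 22283 probe sets, of which 68 controls were left out; the platform annotation gave 19065 of the rest 1 symbol, 1043 several and 2107 none. Values were taken as log2(signal + 197), 197 being the 25th percentile, and probe sets with a mean under the 40th percentile (474) were left out. limma 3.58.1 (lmFit and trended eBayes, in R 4.3.3 with statmod 1.5.0) was fitted to all 13329 remaining probe sets, two-sided, calls being made at an adjusted p under 0.05 after Benjamini-Hochberg. The fit was also run on simulated data with independent noise on each array. These held no laboratory series or chip lots, so that run does not bear on the effect of either. No detection calls were used. Precision is limited by the number of arrays.

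Members, lists and alternatives were chosen with earlier results of these data known. All member probe sets are described; of each other list up to 3 called genes per direction are named, or the 2 with the smallest p where none was called, and values of further members of those lists are given beside them. The listed alternatives change the pseudocount, filter, scaling, variance model, blocks, probe set averaging or arrays. Promoter windows are from RefSeq. Figures used matplotlib 3.10.9.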

Additional observations from a re-analysis of the deposited data

How the results depend on the processing

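The count of called light chain probe sets was 8 with all arrays and lay between 6 and 10 in the 19 alternatives, always higher in myotubes; it was 6 with the laboratory series as a block or within the first series alone, 7 with chip lot as a random block or myoblast arrays 2 and 3 averaged, and 7 to 10 when each array was left out. The gene count was 5, and 4 to 6 in the alternatives. Counts over all probe sets moved more: 1510 with all arrays, 917 without the trend, 338 with the series block, 174 in the first series alone, 401 with the lot block, 573 with arrays 2 and 3 averaged, and 493 to 3468 when each array was left out, the highest without myoblast array 1. Within that series the single myoblast array was taken to vary as much as the myotubes do. No chip lot held arrays of both stages, so the lot block cannot separate lot from stage. Arrays with the same replicate number did not deviate together in every pair (r = 0.25, -0.18 and 0.38). Whether they share more than a number was not tested. The replicate block called 8 light chain probe sets and 2314 in all.

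Signs turned for 3 light chain probe sets, none called with all arrays. MYL6 was at -0.41 (212082_s_at) and -0.36 (214002_at) with the series block or the first series alone, and 212082_s_at was at -0.10 after quantile normalization. MYL3 ranged from -0.0083 to 0.79 when each array was left out, the lowest without myotube array 1. MYL10 was at -0.75 with the series block or the first series alone and ranged from -0.11 (without myoblast array 3) to 2.03 when each array was left out. With the series block the signs of MYL12A (-0.56) and MYLK (-0.21), and of the heavy chains MYH13 (-0.65) and MYH14 (-0.28), turned too, none of them called. The cause was not tested. The filter at the 60th percentile left out MYL2, MYL3 and MYL5. Signals near the highest unspiked control limit what can be said of MYL2, MYL3, MYL5 and the myoblast levels of MYL11 and MYL1.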
